A study of Mus musculus with 45 samples.

Results

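The Hox genes of the mouse were followed by strand-specific total RNA-seq while embryonic stem cells (ESCs) left the naive state. The 39 members were all genes whose symbol was Hoxa, Hoxb, Hoxc or Hoxd followed by a paralog number and nothing else, out of 35372 genes counted, and antisense transcripts of the clusters were left out. The rule used no measured value, but it was chosen with earlier results of these data known. On GRCm38 the Hoxa cluster (11 members) lies on the minus strand at chr6:52155590-52260880. The Hoxb cluster (10 members) lies at chr11:96194316-96368256, the Hoxc cluster (9 members) at chr15:102921103-103036852 and the Hoxd cluster (9 members) at chr2:74668310-74765142, all on the plus strand.

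All 45 libraries came from 1 wild-type male ESC line, E14tg2a, of the 129/Ola background, so every value describes 1 line. Cells were kept in 2iL (inhibitors of Mek and of Gsk3, with LIF) or in SL (serum with LIF). They were then taken through 3 courses: embryoid bodies in suspension in serum without LIF (EB), adherent culture in N2B27 with Fgf2 and Activin A (FA, labelled EpiSC) and adherent culture in N2B27 alone (N2B27, labelled neural). Samples were taken on days 0, 1, 1.5, 2, 2.5, 3, 5 and 7, with 1 library for each medium, course and day. At day 0 there were 3 libraries from 2iL and 1 from SL, and the FA course from 2iL at day 5 was not analysed here. From day 1 on, the 2 starting media stood as the replicates of a course and day. The sources do not say which libraries came from separate cultures, so p-values measure the spread between these libraries, which may be technical.

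Hox genes encode homeodomain transcription factors that give cells their position along the head to tail axis. In the embryo the members at the 3′ end of each cluster, with low paralog numbers, come on first and reach furthest forward, into the hindbrain, and those at the 5′ end, with high numbers, come on later and mark the tail. Retinoic acid, Wnt and Fgf signals and the Cdx factors act on the clusters, and the proteins bind DNA with Pbx and Meis partners.

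Promoters are shown for 3 members on which the results turn: Hoxb1, which rose and fell in N2B27, Hoxa2, which had the largest log2 difference between EB and N2B27 on days 5 and 7, and Hoxd1, which was highest per exon length in the EB library of day 7 from 2iL. RefSeq promoters (250 bases before to 50 after the start, build GRCm38.p6) were matched by symbol for 22 of the 39 members, with 24 sequences. They held a median of 14.5 CpG dinucleotides (range 4 to 45), against a median of 7 over 32851 promoters of the same length. The Pbx-Hox motif TGATNNAT was found on either strand in 4 of the 24 (16.7%) and in 8.85% of all promoters. The retinoid receptor motif AGGTCA was found in 7 of the 24 (29.2%) and in 16.3% of all promoters. Capitals mark a match to the Pbx-Hox motif on either strand.
Hoxb1 (chr11:96365508-96365807, plus strand, 10 CpG): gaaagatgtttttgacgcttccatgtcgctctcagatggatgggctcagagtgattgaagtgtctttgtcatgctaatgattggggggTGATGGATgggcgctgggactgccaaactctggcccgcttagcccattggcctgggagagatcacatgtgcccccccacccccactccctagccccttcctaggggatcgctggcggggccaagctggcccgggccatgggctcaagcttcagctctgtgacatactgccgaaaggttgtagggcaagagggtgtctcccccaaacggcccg
Hoxa2 (chr6:52164782-52165081, minus strand, 9 CpG): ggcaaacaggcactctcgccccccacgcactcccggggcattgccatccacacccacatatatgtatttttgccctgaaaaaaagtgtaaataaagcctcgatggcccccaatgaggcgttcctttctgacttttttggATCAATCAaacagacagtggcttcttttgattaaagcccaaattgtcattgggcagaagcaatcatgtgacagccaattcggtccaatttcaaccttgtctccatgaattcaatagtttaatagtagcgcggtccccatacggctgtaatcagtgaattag
Hoxd1 (chr2:74762730-74763029, plus strand, 29 CpG): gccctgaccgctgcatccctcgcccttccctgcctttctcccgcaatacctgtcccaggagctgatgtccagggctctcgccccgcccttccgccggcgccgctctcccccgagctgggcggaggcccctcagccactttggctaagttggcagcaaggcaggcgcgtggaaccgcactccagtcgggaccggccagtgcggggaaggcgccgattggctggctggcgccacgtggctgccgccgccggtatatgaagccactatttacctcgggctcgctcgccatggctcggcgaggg
The windows of Hoxb1 and Hoxa2 each held 1 Pbx-Hox match, and the Hoxd1 window held neither motif.

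Library totals ran from 13093226 to 39804240 reads. The 8 libraries of the EB course from 2iL were deep (31055159 to 39804240), and the other 37 ranged from 13093226 to 37071102. Levels are given as CPM, the reads of a gene scaled to a common library total, and at the median depth 1 CPM stood for 18.2 reads. A count of 0 allowed a level of up to 0.0754 to 0.229 CPM (3 reads), by library, and such limits and the Wilson intervals given below cover counting error only. All 39 members had reads, and 33 reached 1 CPM in at least 1 library. Hoxa6, Hoxa11, Hoxc9, Hoxc10, Hoxc11 and Hoxd12 stayed under it. Tests used edgeR with Benjamini-Hochberg adjustment over all genes that passed its filter on low counts (16946 genes from day 1 on, among them 37 members, all but Hoxc11 and Hoxd12). A member that passed through a group where it is high had to differ, so counts over these 37 stand beside the share of all genes called. Where a called member had no reads on a day compared, its CPM is given in place of a fold. In bulk RNA, fewer cells expressing a gene and less RNA per cell cannot be told apart.

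The courses were checked against marker lists. Summed naive markers (Nanog, Zfp42, Esrrb, Klf2, Tfcp2l1) were at 3884 to 4139 CPM in 2iL and 2236 CPM in SL at day 0, and at 39.4 to 300 CPM in the 11 libraries of days 5 and 7. Summed streak and mesoderm markers (T, Mesp1, Kdr, Hand1) reached 62.5 to 586 CPM in EB on those days, against 9.76 to 23.9 CPM in FA and 5.69 to 9.98 CPM in N2B27. Neural markers (Sox1, Pax6, Nes, Tubb3) summed to 344 to 612 CPM in N2B27, 174 to 374 CPM in FA and 97.2 to 262 CPM in EB. The FA libraries, labelled EpiSC, thus carried neural markers beside the epiblast markers Fgf5, Otx2 and Pou3f1 (summed 66.6 to 146 CPM). Of the 4 neural markers, 1 was called higher in FA than on days 1 to 2, and 4 were in N2B27. In these comparisons 32.2 and 37.7% of all genes were higher (edgeR). In N2B27 the endoderm list (Afp, Ttr, Sox7, Lama1) reached 1511 to 5607 CPM, of which Lama1 gave 1483 to 5453 CPM and no other member more than 73.2 CPM.

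**Figure D1:**
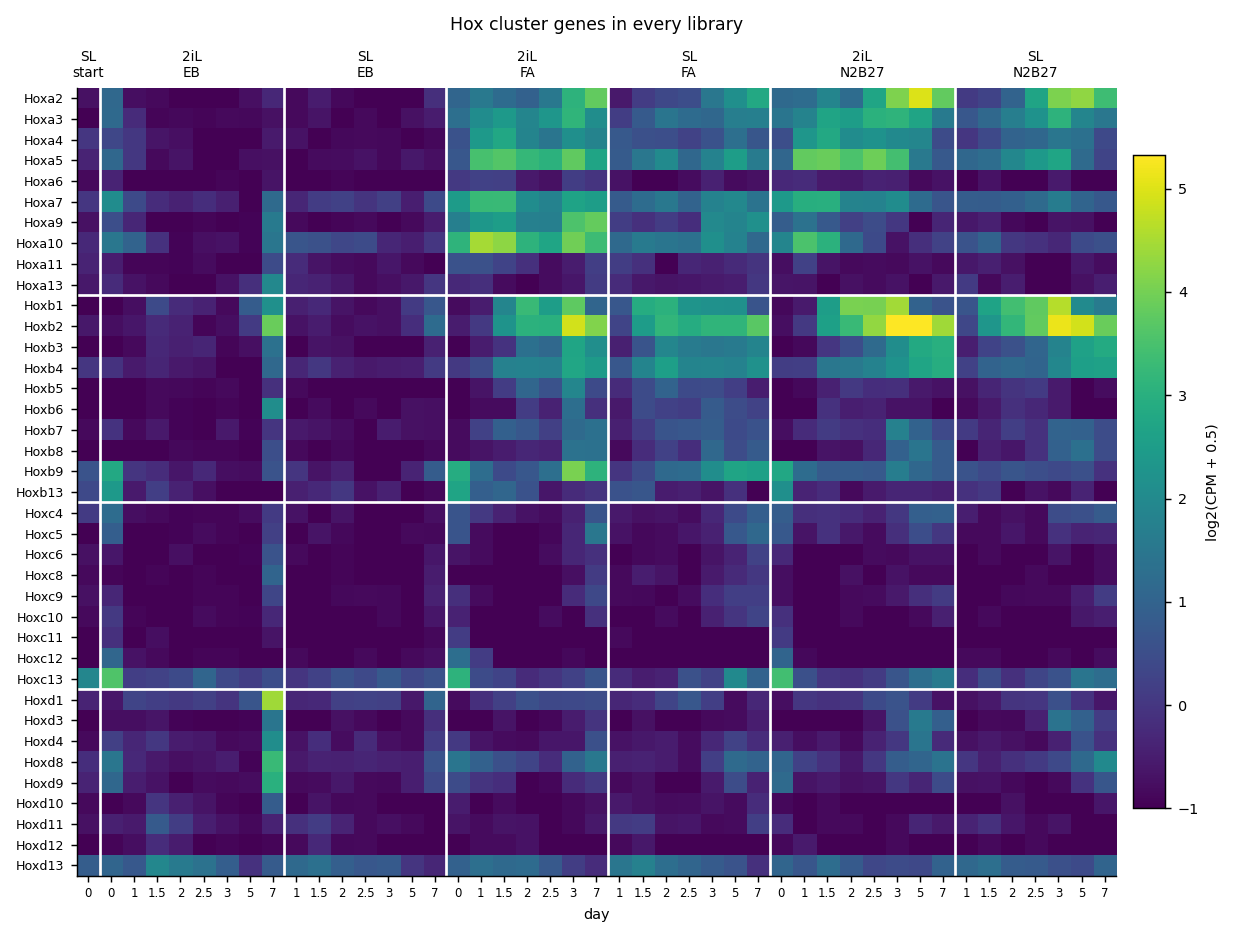
Level of 38 of the 39 Hox genes (rows, by cluster and paralog number) in each of the 45 libraries (columns, by course, starting medium and day), as log2(CPM + 0.5). Hoxb9, Hoxb13 and Hoxc13 are high in the 2iL columns of day 0, and the EB columns are mostly dark from day 1 to day 5. From 2iL, Hoxa9 and Hoxa10 stay on in FA but fade in N2B27. From SL, Hoxa9 first reaches 1 CPM in FA on day 3.

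The 3 day 0 libraries from 2iL carried more Hox RNA than the 1 library from SL. The 39 members summed to 77.7, 70.9 and 67.2 CPM in the 3 libraries from 2iL and to 16.4 CPM in the library from SL, and 15, 15 and 16 members reached 1 CPM in 2iL against 4 in SL. Members at the 5′ ends were among those on. Hoxc13 stood at 11.4, 7.98 and 10.1 CPM in 2iL and 3.24 CPM in SL (95% Wilson interval 2.51 to 4.17). Hoxb9 stood at 6.54, 7.05 and 6.39 CPM against 1.04 CPM. Hoxb13, the last gene of its cluster, stood at 4.73, 5.99 and 3.92 CPM against 0.823 CPM. For each of these 3 genes all 3 libraries from 2iL lay above the SL library. With 1 library from SL, the 2 media did not overlap for 25 of the 39 members. No share over all genes is given here, so this count cannot be read as particular to Hox genes. Per kilobase of exon the order of these 3 genes in each library from 2iL was Hoxc13 (4.65, 3.24 and 4.10 CPM per kb), Hoxb9 (2.54, 2.74 and 2.48) and Hoxb13 (2.14, 2.71 and 1.78).

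At day 0, 15 of the 23 members tested were higher in 2iL and 0 were lower, where 13.5% of all genes tested were called higher and 17.3% lower (edgeR, 30.8% in all). The 8 tested but not called were Hoxa4, Hoxa6, Hoxa11, Hoxb4, Hoxc4, Hoxc10, Hoxd4 and Hoxd13, and Hoxd13, the last of its cluster, stood at 1.46 to 1.59 CPM in 2iL and 1.32 CPM in SL. Members without a read in SL were among those called. On pooled reads Hoxa3 (137 reads in 2iL) was at least 11.9-fold higher, Hoxc12 (117 reads) at least 10.1-fold, Hoxc5 (86 reads) at least 7.46-fold and Hoxc11 (35 reads) at least 3.03-fold, each against 3 reads over the group. Hoxa2 had 118 reads in 2iL and 2 in SL (log2 difference 3.92 ± 0.76, adjusted p = 0.0051). Hoxb9 was higher by 2.73 ± 0.38 on the log2 scale (SE, adjusted p = 0.001), Hoxb13 by 2.61 ± 0.46 (adjusted p = 0.0032) and Hoxc13 by 1.67 ± 0.33 (adjusted p = 0.0059). The SL side was 1 library, which is taken to vary like the 2iL libraries, so these p-values compare the libraries at hand and do not show a difference between the media. Cdx1 and Cdx2, which act on Hox clusters, were also higher in 2iL. Cdx1 stood at 71.8, 43.9 and 67.6 CPM against 4.004 CPM, and Cdx2 differed by 3.19 on the log2 scale. Cdx4, on few reads, was lower in 2iL, at 0.0297, 0.266 and 0.14 CPM against 0.384 CPM. The part of these genes in the Hox levels was not tested.

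From 2iL, some members of the Hoxb and Hoxc clusters were lower on day 1 than on day 0. A comparison of day 1 with day 0 was added after the values were seen. Of 35 members tested, 7 were lower and 0 higher (edgeR). Of all genes tested 28.6% were called, with 14.6% higher and the rest of those called lower. The share of members called in either direction was below that of all genes, but the share of members lower was above that of all genes lower. The 7 lower members were Hoxb9, Hoxb13, Hoxc4, Hoxc5, Hoxc11, Hoxc12 and Hoxc13. The fit pooled the 3 courses, which did not all move the same way. From day 0 to day 1 the summed Hoxa level went from 37.99 to 71.17 CPM in FA. It went from 34.68 to 58.46 CPM in N2B27 and from 41.04 to 5.978 CPM in EB. The count of 0 higher thus does not mean that no member rose within a course. Hoxc13 was at 0.634, 0.857 and 0.948 CPM on day 1 in EB, FA and N2B27 (log2 change -3.62 ± 0.50, adjusted p = 6.6e-05). Hoxb13 was at 0.181, 1.38 and 0.271 CPM (-3.58 ± 0.88, adjusted p = 0.0062) and Hoxb9 at 0.483, 1.91 and 1.85 CPM (-2.86 ± 0.92, adjusted p = 0.028). Hoxc5 fell by 4.71 ± 1.26 (adjusted p = 0.01), and Hoxc11, with no read on day 1, was at least 11.7-fold lower. For all 7 genes the libraries of the 2 days did not overlap. In either direction this held for 17 of the 39 members. No share over all genes is given here, so this count cannot be read as particular to Hox genes. Without the EB library of day 1, or without a term for course, 3 members were called. Of 4 Cdx and ParaHox genes tested, 2 were lower and 2 higher on day 1. Cdx1 and Cdx2 were lower, by log2 changes of -6.26 and -4.47. Cdx4 went the other way. In EB, FA and N2B27 it was at 0.0297, 0.266 and 0.14 CPM on day 0. On day 1 it was at 2.14, 0.989 and 0.858 CPM. The part of these genes in the Hox change was not tested.

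**Figure D2:**
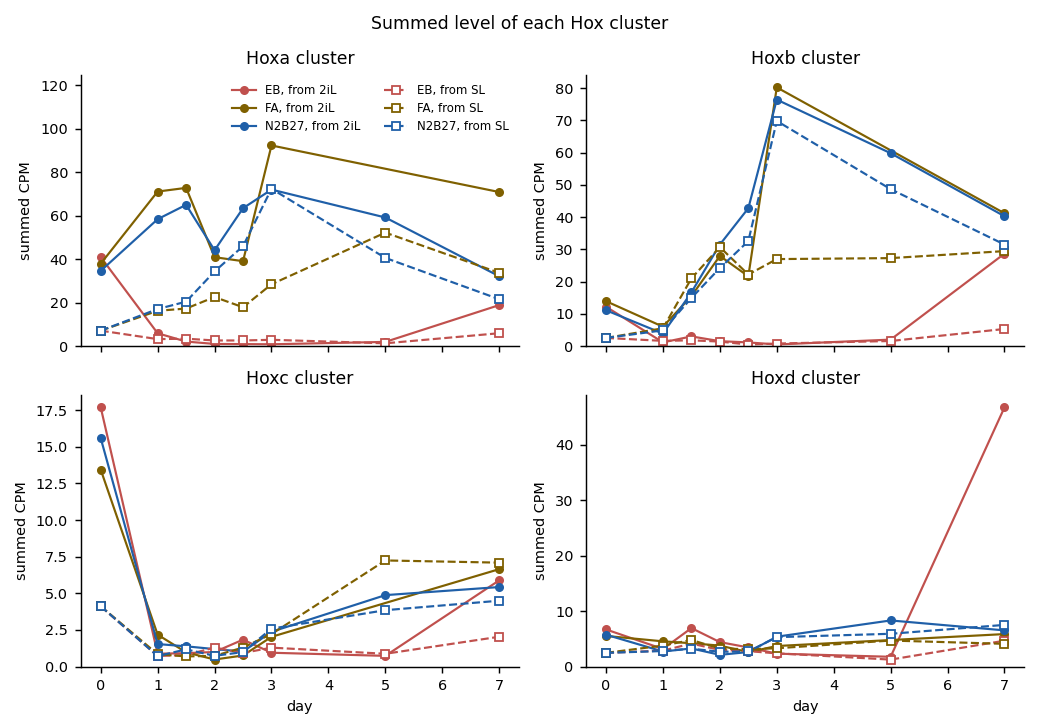
Summed CPM of the members of each cluster (y axis) by day (x axis), with lines for the 3 courses from 2iL (filled, solid) and SL (open, dashed); each point is 1 library and the SL day 0 library starts all 3 SL lines. Hoxa is high by day 1 in FA and N2B27 from 2iL (71.2 and 58.5 CPM), and Hoxd reaches 46.8 CPM in the EB library of day 7 from 2iL.

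In EB the clusters were nearly silent until day 7. From day 1 to day 5 the 39 members summed to 4.74 to 13.1 CPM in the 12 libraries, and 0 to 3 members reached 1 CPM. The gene above it most often was Hoxd13, at 1.18, 3.28 and 2.497 CPM from 2iL and 1.73, 2.04 and 1.38 CPM from SL on days 1, 1.5 and 2. At day 7 the sum was 100.3 CPM from 2iL, with 20 members at 1 CPM or more, and 18.1 CPM from SL, with 6.

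The library of day 7 from 2iL was led by Hoxd1, a 3′ member of the Hoxd cluster, at 21.1 CPM (Wilson interval 19.6 to 22.6), where it had been at 1.08 CPM on day 5. From SL it stood at 1.54 CPM (1.08 to 2.18) on day 7 and 0.163 CPM on day 5. Hoxb2, an early hindbrain member, was at 14.3 CPM from 2iL and 1.83 CPM from SL, from 0.553 and 0.381 CPM on day 5. In both genes the 2 media moved the same way. From 2iL and SL, Hoxd8 reached 9.26 and 1.04 CPM, Hoxb1 4.02 and 1.14 CPM and Hoxa13, which patterns limb tips and hindgut, 3.35 and 0.496 CPM. The 2iL value was the higher for each gene named here. Per kilobase of exon, Hoxd1 was first in the 2iL library (11.3 CPM per kb), then Hoxb2 (4.09) and Hoxd9 (3.54), and in the SL library Hoxd1 (0.825) was also ahead of Hoxb2 (0.526).

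Between days 5 and 7 of EB, 22 of 37 members rose and 0 fell, where 7.80% of all genes tested rose and 5.66% fell (edgeR, 13.5% in all, 2 libraries a day). The rise was not of 3′ members alone: 8 of 12 tested members of groups 1 to 4, 8 of 11 of groups 5 to 8 and 6 of 14 of groups 9 to 13 were called. By fitted log2 change, members with reads on both days that rose included Hoxd8 (5.62 ± 1.01, adjusted p = 0.00084), Hoxb6 (5.30 ± 1.41, adjusted p = 0.016) and Hoxa9 (5.11 ± 1.07, adjusted p = 0.0032). From day 5 to day 7, Hoxd8 went from 0.0251 to 9.26 CPM from 2iL and from 0.218 to 1.04 CPM from SL, and Hoxa9 from 0.0251 to 2.502 and from 0.0544 to 0.198 CPM. Hoxb6 went from 0 to 3.78 CPM from 2iL, but was at 0.109 and 0.0992 CPM from SL, so its call rests on the 2iL libraries. The same holds for Hoxb5, Hoxc5 and Hoxd10, which were no higher on day 7 than on day 5 from SL. Among members with 0 reads in both libraries of day 5, Hoxc8 was at least 20.8-fold higher, Hoxd10 at least 16.1-fold, Hoxb8 at least 12.1-fold and Hoxc9 at least 11.1-fold. The median log2 change of the 37 members was 3.89, or 3.48 with 7 such members at their bound, and that of all genes 0.00. The count was 4 without the 2iL library of day 5, 6 without that of day 7, and 4 in a fit of the compared libraries alone. The mesoderm markers Hand1 and Kdr also differed between the day 7 libraries, at 364 and 140 CPM from 2iL and 18.2 and 30.1 CPM from SL. T, of the same list, was closer, at 73.1 CPM from 2iL and 56.2 CPM from SL. The endoderm marker Afp stood at 20.98 CPM from 2iL and 619 CPM from SL. The 2iL library held 37563672 reads and the SL library 20169493. The part of either in the Hox levels was not tested.

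Over the whole EB course (days 5 and 7 against days 1 to 2), 7 members rose and 4 fell of 37 tested, where 35.9% of all genes tested rose and 33.3% fell (edgeR, 69.1% in all). The share of members called was below that of all genes, and 5 members had no usable estimate, having no reads on a day compared. Among those that rose were Hoxa9, Hoxa13, Hoxb1, Hoxb2, Hoxd1 and Hoxd9. Hoxb2 rose by 3.05 ± 0.46 on the log2 scale (adjusted p = 5.2e-06), Hoxd9 by 2.59 ± 0.76 (adjusted p = 0.0051), and Hoxa9 went from 0.0648 to 0.695 CPM on average (adjusted p = 0.029). Those that fell were Hoxa4, Hoxb13, Hoxd11 and Hoxd13. Hoxb13 went from 0.357 ± 0.175 CPM (SD, n = 6) to a mean of 0.0124 CPM over 4 libraries, edgeR adjusted p = 0.00033. Hoxd11 fell by 2.69 ± 0.84 (adjusted p = 0.0071), Hoxd13 by 1.81 ± 0.32 (adjusted p = 3.8e-05), and Hoxa4 went from 0.155 to 0.0590 CPM (adjusted p = 0.033).

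By days 2.5 and 3 of EB, 3 members, Hoxa4, Hoxb9 and Hoxd11, had fallen and 0 had risen, where 20.3% of all genes tested fell and 21.8% rose (42.1% in all). Hoxa4 averaged 0.0269 CPM on those days (log2 change -2.25 ± 0.82, adjusted p = 0.032), Hoxd11 0.125 CPM (-1.95 ± 0.77, adjusted p = 0.047) and Hoxb9 0.103 CPM (-1.82 ± 0.63, adjusted p = 0.025). These are few reads, and 1 member was called without the 2iL library of day 1 or of day 1.5 and 0 without that of day 3 or without the term for medium.

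**Figure D3:**
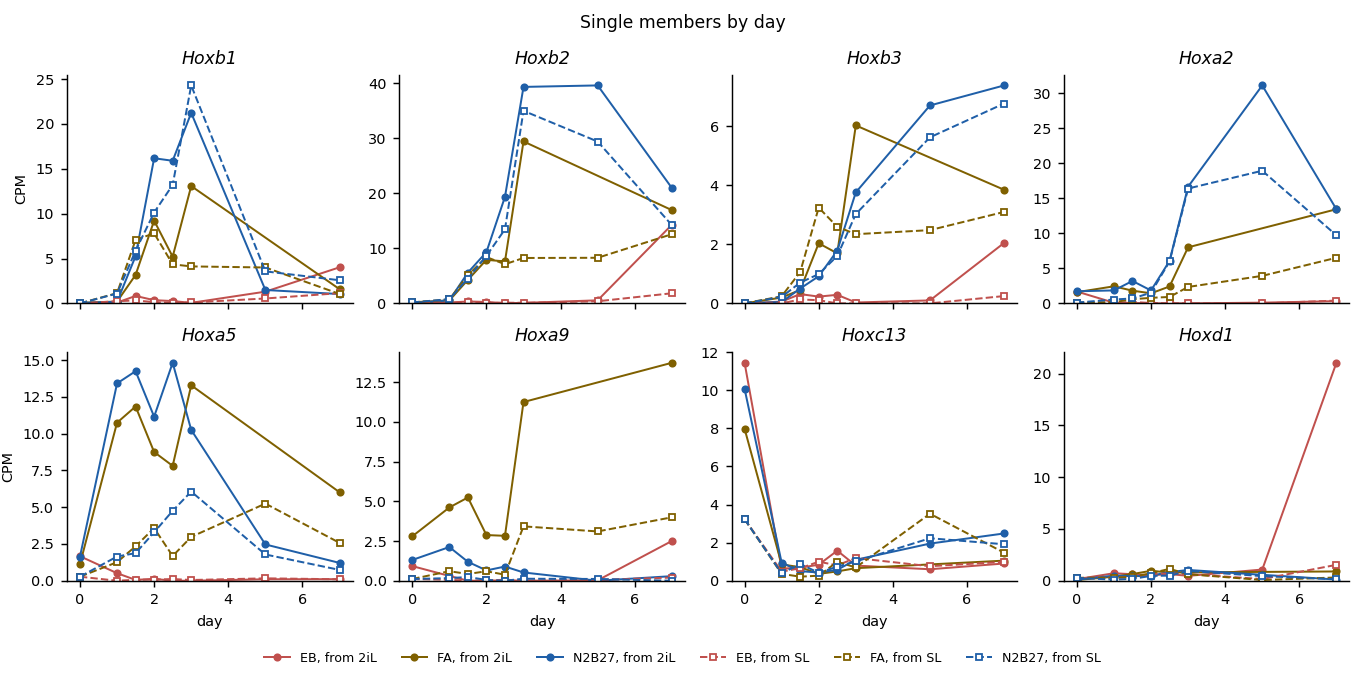
CPM (y axis, own scale in each panel) by day (x axis) of 8 members, with lines for the 3 courses from 2iL (filled, solid) and SL (open, dashed); each point is 1 library. Hoxb1 peaks at 21.2 and 24.3 CPM on day 3 of N2B27, Hoxa9 is held in FA from 2iL, and Hoxd1 rises in the EB library of day 7 from 2iL.

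In N2B27 the hindbrain members were highest on different days. Hoxb1, which marks the fourth hindbrain segment in the embryo, went from 2iL through 0.181, 5.27, 16.2, 15.9, 21.2, 1.49 and 1.04 CPM on days 1, 1.5, 2, 2.5, 3, 5 and 7. From SL it went through 1.098, 5.86, 10.1, 13.2, 24.3, 3.57 and 2.58 CPM. Both media gave a peak on day 3 and a fall by day 5, where the Wilson intervals were 1.02 to 2.18 and 2.79 to 4.56 CPM.

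Hoxb2 followed, at 0.542 and 0.768 CPM on day 1, 39.3 and 35.0 CPM on day 3, 39.6 and 29.4 CPM on day 5 and 20.96 and 14.21 CPM on day 7, from 2iL and SL. Hoxa2, the Hox gene with the most forward limit in the hindbrain, was at 1.85 and 0.549 CPM on day 1, 16.7 and 16.4 CPM on day 3 and 31.1 and 18.9 CPM on day 5. Hoxb3 and Hoxb4 were highest on day 7 in both media, at 7.39 and 6.78 CPM and at 7.22 and 5.67 CPM. Hoxa2, Hoxb3 and Hoxb4 were thus highest on later days than Hoxb1 in both media, while Hoxb2 was highest on day 5 from 2iL and on day 3 from SL. With 1 library for each medium and day the order of neighbouring days was not tested. Per kilobase of exon, Hoxb2 (11.3 and 10.0 CPM per kb from 2iL and SL), Hoxb1 (9.15 and 10.46) and Hoxa2 (9.39 and 9.24) were close on day 3, in an order that differed between the media. On day 5 Hoxa2 (17.5 and 10.7) was ahead of Hoxb2 (11.3 and 8.42) in both.

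Between days 1 to 2 and days 2.5 and 3 of N2B27, 11 of 37 members rose and 1 fell, where 26.6% of all genes tested rose and 22.6% fell (edgeR, 49.2% in all). The count that rose was near the share of all genes. Of the 11, 9 were of groups 1 to 4, among them Hoxa2, Hoxa3, Hoxb1, Hoxb2, Hoxb3, Hoxb4, Hoxd1 and Hoxd3. A difference between paralog groups was not tested. Hoxb2 rose by 2.95 ± 0.29 on the log2 scale (adjusted p = 4.9e-08), Hoxa2 by 2.79 ± 0.35 (adjusted p = 2.2e-06) and Hoxb1 by 2.33 ± 0.42 (adjusted p = 9.2e-05). Hoxd3, Hoxb8 and Hoxc9 had days without reads, and went from 0.0185 to 0.876, from 0.104 to 0.912 and from 0.0177 to 0.0906 CPM on average. Hoxa10, a trunk member, fell by 2.78 ± 0.96 (adjusted p = 0.021), from 11.01 CPM from 2iL and 1.04 CPM from SL on day 1 to 0.116 and 0.316 CPM on day 3.

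By days 5 and 7 of N2B27, 14 of 37 members were higher than on days 1 to 2 and 4 lower, where 37.7% of all genes tested were higher and 34.6% lower (edgeR, 72.2% in all). The count of higher members was about the share of all genes, and the share called in either direction was below that of all genes. The higher ones were Hoxa2, Hoxb2, Hoxb3, Hoxb4, Hoxb7, Hoxb8, Hoxc4, Hoxc9, Hoxc10, Hoxc13, Hoxd3, Hoxd4, Hoxd8 and Hoxd9. Hoxb3 rose by 3.89 ± 0.43 on the log2 scale (adjusted p = 4.3e-08), Hoxa2 by 3.45 ± 0.35 (adjusted p = 2.7e-08) and Hoxb2 by 2.90 ± 0.29 (adjusted p = 1.2e-08). Hoxd3, Hoxc9 and Hoxb8, with early days without reads, averaged 1.49, 0.448 and 1.60 CPM on days 5 and 7. The lower ones, Hoxa5, Hoxa7, Hoxa9 and Hoxb5, are of groups 5 to 9, and a difference between paralog groups was not tested. Hoxa5, which acts at the neck and upper trunk, was at 13.4, 14.24 and 11.2 CPM from 2iL and 1.65, 1.88 and 3.29 CPM from SL on days 1, 1.5 and 2. On days 5 and 7 it was at 2.47 and 1.21 CPM from 2iL and 1.78 and 0.737 CPM from SL (log2 change -2.04 ± 0.37, adjusted p = 3.7e-05). These late values overlapped the early ones from SL. Hoxa9 fell from an average of 0.736 to 0.100 CPM (adjusted p = 0.0075) and Hoxb5 by 1.79 ± 0.77 (adjusted p = 0.043).

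From day 5 to day 7 of N2B27, 0 of 37 members rose and 2 fell, where 5.29% of all genes tested rose and 6.82% fell (edgeR, 12.1% in all). They were Hoxa4 (log2 change -1.64 ± 0.53, adjusted p = 0.047) and Hoxd4 (-1.98 ± 0.64, adjusted p = 0.046). Hoxa4 went from 3.21 and 2.01 CPM to 0.866 and 0.810 CPM. With any 1 of the 4 libraries left out 0 or 1 was called (0 without either library of day 5 or the 2iL library of day 7, 1 without the SL library of day 7), and 0 without the filter on low counts.

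In FA the same hindbrain genes were on, and trunk members were on beside them. From SL, Hoxa9 first reached 1 CPM on day 3 and Hoxb9 on day 2. Hoxb1 was highest at 13.1 CPM on day 3 from 2iL and at 7.81 CPM on day 2 from SL, and Hoxb2 at 29.4 CPM on day 3 and 12.6 CPM on day 7. Hoxb1 was thus highest a day apart in the 2 media, and was at 1.58 and 1.05 CPM on day 7. Hoxa10 was at 21.7, 18.5 and 8.03 CPM on days 1, 1.5 and 2 from 2iL, against 1.74, 2.501 and 2.25 CPM from SL, and at 9.55 and 1.68 CPM on day 7. Hoxa9 was at 11.2 and 3.42 CPM on day 3 and 13.7 and 3.99 CPM on day 7, and Hoxb9 at 16.0 and 3.80 CPM and 8.07 and 5.52 CPM.

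Between days 1 to 2 and days 2.5 and 3 of FA, 5 of 37 members rose and 2 fell, where 22.8% of all genes tested rose and 19.3% fell (edgeR, 42.1% in all). Hoxb2 rose by 1.96 ± 0.30 on the log2 scale (adjusted p = 2.7e-05), Hoxb3 by 1.95 ± 0.43 (adjusted p = 0.00094) and Hoxb9 by 1.82 ± 0.38 (adjusted p = 0.00055), with Hoxa2 and Hoxb8 also higher. Hoxb13 fell by 2.17 ± 0.66 (adjusted p = 0.011) and Hoxd13 by 0.88 ± 0.31 (adjusted p = 0.029).

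By days 5 and 7 of FA, 17 of 37 members were higher than on days 1 to 2 and 1 lower, where 32.2% of all genes tested were higher and 28.0% lower (edgeR, 60.2% in all). Among the higher ones were Hoxa2, Hoxa9, Hoxb2, Hoxb3, Hoxb8, Hoxb9, Hoxc4, Hoxc5, Hoxc6, Hoxc8, Hoxc9, Hoxc10, Hoxc13, Hoxd4, Hoxd8 and Hoxd9. Of the 8 Hoxc members tested 7 rose, but they remained low. Hoxc5 was at 2.32 CPM from 2iL on day 7 and 1.17 and 1.68 CPM from SL on days 5 and 7, above 0 to 0.120 CPM on days 1 to 2 (log2 change 5.19 ± 0.74, adjusted p = 4.5e-06). Hoxc10 and Hoxc9, with early days without reads, averaged 0.547 and 0.681 CPM. Hoxc13, the last of its cluster, rose by 2.24 ± 0.34 (adjusted p = 8.7e-06), Hoxa2 by 2.70 ± 0.41 (adjusted p = 1.3e-05) and Hoxb9 by 2.56 ± 0.40 (adjusted p = 1.2e-05). The member that fell was Hoxd13, by 1.64 ± 0.40 (adjusted p = 0.0015), from 1.75 to 2.93 CPM in the 6 early libraries to 0.369, 1.03 and 0.420 CPM in the 3 late ones.

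**Figure D4:**
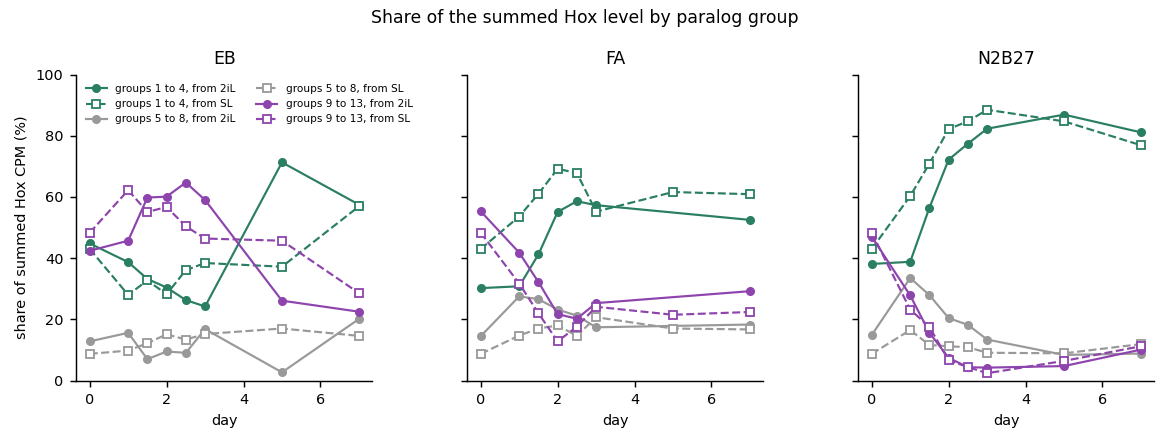
Share of the summed Hox CPM (y axis, percent) held by paralog groups 1 to 4, 5 to 8 and 9 to 13, by day (x axis) in each course, from 2iL (filled, solid) and SL (open, dashed); each point is 1 library. On days 5 and 7 groups 1 to 4 hold 76.9 to 86.9% in N2B27, while groups 9 to 13 hold 21.5 to 29.2% in FA.

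FA and N2B27 were compared early and late. On days 1 to 2, in a comparison added after the values were seen, 2 of 37 members were higher in FA and 0 lower, where 1.75% of all genes tested were higher and 1.35% lower (edgeR, 3.10% in all). They were Hoxa9 (1.67 ± 0.43, adjusted p = 0.041) and Hoxb13 (2.39 ± 0.64, adjusted p = 0.044), and 1 was called without the SL library of FA day 2 and 0 without any other of the 12 libraries. Groups 9 to 13 held 27.8 and 23.2% of the summed Hox CPM in N2B27 on day 1, from 2iL and SL, and 4.22 and 2.40% on day 3. In FA they held 41.8 and 31.7% on day 1 and 25.3 and 24.1% on day 3.

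On days 5 and 7, 9 of 37 members were higher in FA than in N2B27 and 3 lower, where 19.2% of all genes tested were higher and 16.2% lower (edgeR, 35.4% in all). The 12 members called were a share near that of all genes. Of the 9 higher in FA, 1 was of groups 1 to 4 and 8 were of groups 5 to 10, namely Hoxa5, Hoxa9, Hoxa10, Hoxb5, Hoxb6, Hoxb9, Hoxc5 and Hoxc8, and a difference between paralog groups was not tested. Hoxa9 was at 13.7, 3.10 and 3.99 CPM in the 3 FA libraries and at 0 to 0.289 CPM in the 4 N2B27 libraries (log2 difference 6.34 ± 0.71, adjusted p = 1.9e-06). Hoxb6, with no reads on a day of N2B27, averaged 0.667 CPM against 0.0287 CPM (adjusted p = 0.0049), and Hoxc8 was higher by 3.62 ± 1.17 (adjusted p = 0.025). Lower in FA were Hoxd3 (-2.82 ± 0.78, adjusted p = 0.0092), Hoxa2 (-1.34 ± 0.43, adjusted p = 0.02) and Hoxb2 (-0.96 ± 0.35, adjusted p = 0.038). The libraries of the 2 courses did not overlap for these 8 members or Hoxd3, and overlapped for Hoxa2 and Hoxb2. They did not overlap for 16 of the 39 members. No share over all genes is given here, so this count cannot be read as particular to Hox genes. Without the term for medium (the replicate block) 4 members were called in place of 12, and 0 with libraries from 2iL alone.

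EB stood apart from both adherent courses from the first days. On days 1 to 2 (added after the values were seen), 20 of 37 members were lower in EB than in FA and 0 higher, where 12.4% of all genes tested were lower (edgeR, 26.6% called in all). Against N2B27, 17 were lower and 0 higher, where 15.2% of all genes tested were lower and 17.6% higher (32.8% in all). The 2 comparisons share the EB libraries. Against FA the lower members were 10 of 11 Hoxa and 10 of 10 Hoxb members, with 0 of the Hoxc and Hoxd clusters. Summed Hoxc was low in both courses, at 0.72 to 1.3 CPM in EB and 0.48 to 2.2 CPM in FA. Only 5 Hoxc members had a usable estimate, so the 0 there does not show that this cluster differed from Hoxa and Hoxb. Hoxa5 averaged 0.141 CPM in EB, 6.42 in FA and 7.60 in N2B27 (log2 differences -5.77 ± 0.44, adjusted p = 8.2e-09, and -6.05 ± 0.43, adjusted p = 2.4e-09). Hoxa3 averaged 0.106, 2.63 and 3.32 CPM (-5.07 ± 0.43, adjusted p = 5.5e-08, and -5.53 ± 0.43, adjusted p = 5.9e-09). Hoxa9, with days of EB without reads, averaged 0.0648, 2.39 and 0.736 CPM.

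Late in the courses, on days 5 and 7, 21 of 37 members were lower in EB than in FA and 1 higher, where 12.4% of all genes tested were lower and 9.74% higher (edgeR, 22.1% in all). Against N2B27, 21 were lower and 2 higher, where 23.6% of all genes tested were lower and 24.2% higher (47.8% in all). Hoxd1 was higher in EB than in both, by 2.63 ± 0.68 against FA (adjusted p = 0.0085) and 2.89 ± 0.51 against N2B27 (adjusted p = 8.6e-05). Its EB values of 1.08, 21.1, 0.163 and 1.54 CPM (days 5 and 7 from 2iL, then from SL) overlapped those of FA (0.0690 to 0.897) and N2B27 (0.116 to 0.574). Hoxa13 was higher in EB than in N2B27 by 2.52 ± 0.73 (adjusted p = 0.0071), at 0.163 to 3.35 CPM against 0 to 0.221 CPM.

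The largest gaps the other way were of Hoxa genes. Hoxa2 did not exceed 0.397 CPM in any EB library from day 1 on, while on days 5 and 7 it was at 3.93 to 13.4 CPM in FA and 9.72 to 31.1 CPM in N2B27. Its log2 difference was -6.89 ± 0.52 against N2B27 (adjusted p = 8e-09) and -5.55 ± 0.56 against FA (adjusted p = 1.1e-06). That of Hoxa5 against FA was -5.59 ± 0.54 (adjusted p = 3.6e-07) and that of Hoxa3 against N2B27 -5.09 ± 0.48 (adjusted p = 5.2e-08). Hoxa4, with 0 reads in both EB libraries of day 5, averaged 0.0590 CPM in EB, 2.05 in FA and 1.72 in N2B27. For these 4 genes the EB libraries did not overlap those of FA or N2B27. The same held for 15 of the 39 members against FA and 9 against N2B27. No share over all genes is given here, so these counts cannot be read as particular to Hox genes. Hoxd4 and Hoxd8 were called lower in EB than in N2B27 on the log scale (-1.31 ± 0.51 and -1.82 ± 0.64) although their mean CPM was higher (1.13 against 1.01 and 2.64 against 2.25), the EB library of day 7 from 2iL being high for both. With libraries from 2iL alone their log2 differences were 0.51 and 1.22. Against FA, 7 members were called in a fit of the compared libraries alone, and with libraries from 2iL alone 5 were called against FA and 7 against N2B27.

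**Figure D5:**
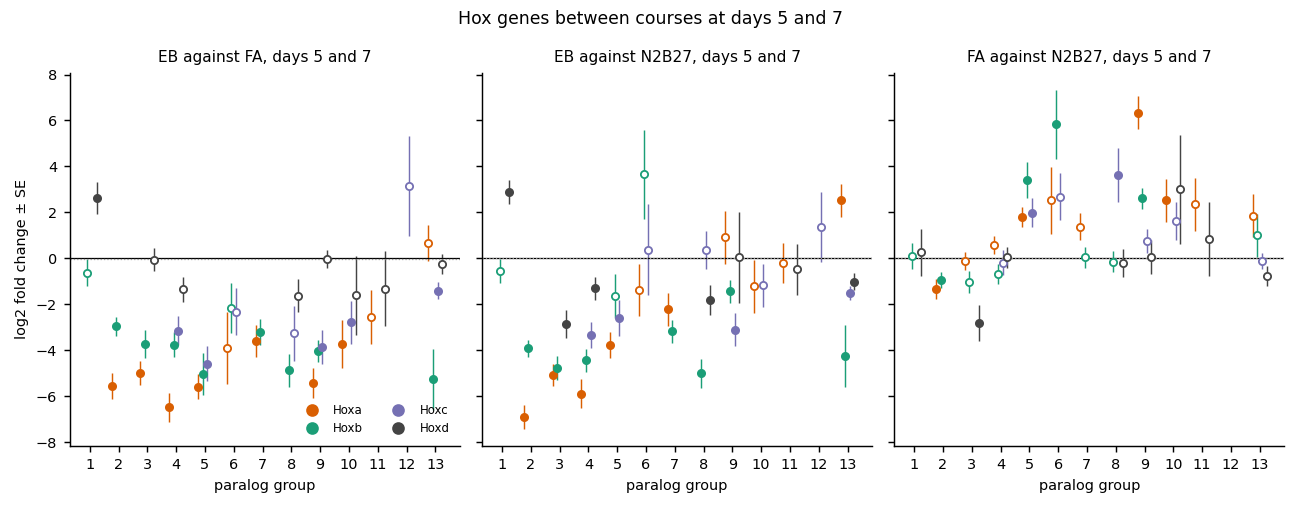
Log2 fold change (y axis, ± SE) of 38 of the 39 Hox genes, where they have an estimate, by paralog group (x axis) and cluster (colour), between courses on days 5 and 7; filled points passed an adjusted p of 0.05, the dotted line is the median of all genes, and the heights of members with a day without reads (such as Hoxa4, Hoxb6 and Hoxb13) depend on the prior count. Against FA and N2B27 the EB points lie mostly below 0 with Hoxd1 above it, and in the FA against N2B27 panel 8 filled points of groups 5 to 10 lie above 0.

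In the first days, the members called between cells from the 2 media were all of the Hoxa cluster. On days 1 to 2 (added after the values were seen), 8 of 37 members were higher in cells from 2iL and 1 lower, where 21.8% of all genes tested were higher and 22.5% lower (edgeR, 44.3% in all). The share of members higher was about that of all genes, and the share called in either direction was below that of all genes. All 9 called were of the 11 Hoxa members: Hoxa2, Hoxa3, Hoxa4, Hoxa5, Hoxa6, Hoxa7, Hoxa9 and Hoxa10 were higher and Hoxa13 was lower. A difference between clusters was not tested. Hoxa5 averaged 7.87 CPM over 9 libraries from 2iL and 1.57 CPM over 9 from SL (edgeR log2 difference 2.37 ± 0.29, adjusted p = 1.2e-06). On day 1 it stood at 13.4 and 1.65 CPM in N2B27 and at 10.7 and 1.26 CPM in FA, from 2iL and SL. Hoxa9 differed by 2.87 ± 0.43 (adjusted p = 2.5e-05), Hoxa6 by 2.67 ± 0.68 (adjusted p = 0.004) and Hoxa13 by -1.50 ± 0.53 (adjusted p = 0.027). Over the 3 courses together the libraries of the 2 media overlapped for each of the 9.

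Later, on days 5 and 7, 1 of 37 members was higher from 2iL and 0 lower, where 1.41% of all genes tested were higher and 1.90% lower (edgeR, 3.31% in all). It was Hoxd1, by 2.18 ± 0.44 (adjusted p = 0.0095), at 4.74 CPM on average from 2iL and 0.446 CPM from SL, in ranges that overlapped. It was lost without either EB library of day 7, and 2 members were called without either N2B27 library of day 7. The median log2 difference was 0.83 over the 37 and 0.01 over all genes, and a shift of the members as a set was not tested.

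Reads could not be assigned to 1 gene everywhere. Hoxd3 and Hoxd4 share 62.3 and 52.3% of their exon length on the same strand with each other or Gm28230, and Hoxa2 shares 15.0% and Hoxa3 8.01% with Gm28308. Hoxc5 and Hoxc10 share 5.37 and 8.70%, Hoxd10 and Hoxd11 share 5.73 and 10.8% with Gm28309, and Hoxa9 shares 1.52% with Mir196b. The levels of Hoxd3 and Hoxd4 above all are uncertain for this reason.

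Partners and upstream factors of the Hox genes were read from lists. Of the 9 TALE cofactors, which bind DNA with Hox proteins, 8 rose and 1 fell in EB from days 1 to 2 to days 5 and 7, and 7 rose and 1 fell in FA and in N2B27. In the same comparisons of EB, FA and N2B27 35.9, 32.2 and 37.7% of all genes rose and 33.3, 28.0 and 34.6% fell. The median log2 changes of the cofactors were 1.32, 1.35 and 1.09, against 0.03, 0.04 and 0.02 over all genes. Meis1 rose by 3.44 in N2B27, 2.57 in FA and 1.32 in EB on the log2 scale, and was at 0.829 to 14.03 CPM in EB and 70.9 to 119 CPM in N2B27 on days 5 and 7. In EB from day 5 to day 7, 3 of 9 rose: Meis1 (3.41), Meis2 (2.26) and Pknox2 (2.85). Of the 4 Cdx and ParaHox genes tested, 2 rose and 2 fell in EB, 1 rose and 2 fell in FA, and 1 rose and 3 fell in N2B27, Cdx2 rising and Cdx4 falling in each. Cdx2 rose by 2.47 in EB from day 5 to day 7, to 31.6 CPM from 2iL and 10.8 CPM from SL, and stood at 0.791 to 3.10 CPM in FA and 1.55 to 6.87 CPM in N2B27 on days 5 and 7.

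Of 10 axial progenitor and tailbud genes, 8 rose in EB, 7 in FA and 4 in N2B27, where 1 fell, beside 35.9, 32.2 and 37.7% of all genes that rose. The count in N2B27 was about the share of all genes. Their median log2 changes were 4.33, 1.40 and 0.71. T (Brachyury), a streak gene, was at 369.7 and 73.1 CPM from 2iL and 44.7 and 56.2 CPM from SL on days 5 and 7 of EB, at 4.12 to 9.59 CPM in FA and at 0.287 to 0.750 CPM in N2B27. T was thus already high in EB on day 5, when the summed Hox level was 6.56 and 5.12 CPM. Of 12 retinoic acid genes, 8 rose and 2 fell in EB, 7 and 3 in FA and 8 and 4 in N2B27, where 69.1, 60.2 and 72.2% of all genes were called in either direction. Their median log2 changes were 1.21, 1.28 and 1.69. Between days 5 and 7 of EB 7 rose and 1 fell, where 7.80% of all genes rose and 5.66% fell. Among them Aldh1a2, which makes retinoic acid, rose from 0.276 and 0.163 CPM to 5.40 and 3.97 CPM (log2 change 4.31), and the receptor gene Rarb from 0.427 and 0.435 CPM to 2.02 and 3.57 CPM (2.81).

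Of 5 hindbrain factors, 5 rose in N2B27 by days 2.5 and 3, against 3 in FA and 1 in EB, where 26.6, 22.8 and 21.8% of all genes rose. By days 5 and 7, 4 rose and 1 fell in each course. Egr2, a hindbrain segment gene, was at 14.01 and 21.3 CPM on day 3 of N2B27 from 2iL and SL, in the libraries where Hoxb1 peaked, and at 0.149 to 0.442 CPM on day 3 of FA and EB. Of 10 fore- and midbrain factors, 7 rose and 1 fell in EB, 4 and 0 in FA and 5 and 2 in N2B27, beside 35.9, 32.2 and 37.7% of all genes that rose, so the counts in FA and N2B27 were near the share of all genes. In EB 5 were higher than in N2B27 on days 5 and 7 and 0 lower, where 24.2% of all genes were higher. Otx2, which marks forebrain and midbrain, was at 44.7 to 130.4 CPM in EB, 24.1 to 46.3 CPM in FA and 2.75 to 13.8 CPM in N2B27 on those days. Otx2 is also among the epiblast markers above, so its level does not tell these cell types apart. The part of these factors in the Hox levels was not tested.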

How the data were processed

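Deposited files held gene counts for 45 libraries (rRNA-depleted, stranded). The authors trimmed reads with TrimGalore, mapped them with TopHat2 to GRCm38 using Ensembl annotation, and assigned them to genes by strand with featureCounts, and the raw counts were deposited without normalization. Their tool versions are not given in the sources used here. CPM was computed as reads over the library total.

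Counts were tested with edgeR 4.0.16 (R 4.3.3) by quasi-likelihood with TMM factors (0.853 to 1.09), filterByExpr and Benjamini-Hochberg adjustment at 0.05 over all genes tested. The 41 libraries from day 1 on shared 1 fit with terms for course and day and for starting medium within days 1 to 2, 2.5 and 3, and 5 and 7. The model weighs days equally. Day 0 was fitted on its 4 libraries. The SE is the log2 fold change over the square root of F. Estimates with an SE over 10, all of members with a day without reads, are not given. On simulated counts for EB late against early (16055 genes, 193 changed) 92.2% of 4-fold and 73.3% of 2-fold changes were called, with 3.59% false calls. In these counts few genes changed and the rest kept 1 mean level, unlike the data, so the rates need not hold there.

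Members and gene lists were chosen with earlier results of these data known, and 8 comparisons, stated as added, after the values were seen. Named by rule were the highest member of each cluster on days 5 and 7, the members of group 1, the last member of each cluster that reached 1 CPM and the 3 largest changes each way in each comparison, with others chosen after their values were seen. Alternatives were DESeq2 1.42.0, its size factors, no filter, no medium term, 1 medium alone, the compared libraries alone and leaving out each library. Values of some genes in the counts are not reported here.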

Additional observations from a re-analysis of the deposited data

Results flagged for a closer look

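The change from days 1 to 2 to days 5 and 7 was compared between courses by a difference of changes in the same edgeR fit, added after the values were seen. Results are given where the difference itself passed an adjusted p of 0.05. More upward or downward is relative to the other course, so such a member need not have risen or fallen itself. From days 1 to 2 to days 5 and 7, mean Hoxa5 went from 0.141 to 0.117 CPM in EB and from 7.60 to 1.55 CPM in N2B27. Mean Hoxd4, said below to change more downward in EB, went from 0.269 to 1.13 CPM there and from 0.12 to 1.01 CPM in N2B27. The comparisons share libraries in pairs, and members with a day without reads in 1 course (Hoxa9, Hoxb6, Hoxb13, Hoxd3 in the EB against N2B27 comparison) have log2 values that depend on the prior count.

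Between EB and FA, 2 members changed more upward in EB and 3 more downward of 37 tested, where 11.3% of all genes tested were called. Hoxb1 (2.72 on the log2 scale, adjusted p = 0.031) and Hoxd1 (2.58 on the log2 scale, adjusted p = 0.039) changed more upward. Hoxc13 (-2.12 on the log2 scale, adjusted p = 0.0043), Hoxb9 (-2.16 on the log2 scale, adjusted p = 0.036) and Hoxd4 (-2.34 on the log2 scale, adjusted p = 0.047) changed more downward.

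Between EB and N2B27, 6 changed more upward in EB and 7 more downward, where 30.7% of all genes tested were called. Among them, the 3′ members Hoxb1 (3.15 on the log2 scale, adjusted p = 0.0029) and Hoxd1 (2.40 on the log2 scale, adjusted p = 0.0076) changed more upward in EB, as did Hoxa5 (2.27 on the log2 scale, adjusted p = 0.048), Hoxa9 (5.71 on the log2 scale, adjusted p = 0.0092) and Hoxb6 (6.59 on the log2 scale, adjusted p = 0.049). Those that changed more downward were Hoxb3 (-2.96 on the log2 scale, adjusted p = 0.025), Hoxb4 (-1.98 on the log2 scale, adjusted p = 0.031), Hoxd3 (-4.82 on the log2 scale, adjusted p = 0.0057) and Hoxd4 (-2.30 on the log2 scale, adjusted p = 0.016) of groups 3 and 4, and Hoxb13 (-5.15 on the log2 scale, adjusted p = 0.013), Hoxc13 (-1.68 on the log2 scale, adjusted p = 0.0042) and Hoxd13 (-1.29 on the log2 scale, adjusted p = 0.033) of group 13.

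Between FA and N2B27, 5 changed more upward in FA and 0 more downward, where 18.5% of all genes tested were called. Among them were Hoxa5 (2.10 on the log2 scale, adjusted p = 0.0069), Hoxa9 (4.67 on the log2 scale, adjusted p = 0.0012), Hoxb9 (2.84 on the log2 scale, adjusted p = 0.0018) and Hoxc5 (3.78 on the log2 scale, adjusted p = 0.017).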

How the results depend on the processing

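Of 3437 values of called members under an alternative, 2795 kept their direction and their side of the threshold, 637 kept the direction alone and 5 reversed. Reversed on the log2 scale were Hoxb9 for EB against N2B27 on days 5 and 7 with libraries from SL alone (0.08), Hoxd4 (0.51) and Hoxd8 (1.22) there with libraries from 2iL alone, Hoxd10 for EB day 7 against day 5 without the 2iL library of day 7 (-1.05), and Hoxb4 in the difference of changes of EB and N2B27 from 2iL alone (0.12). Counts of members called moved by over 1.5 times as follows. Fits of 1 medium or of the compared libraries hold fewer libraries, and the cause was otherwise not tested.

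With libraries from 2iL alone, 18 were called in EB, 3 in FA and 8 in N2B27 for days 5 and 7 against days 1 to 2, and with libraries from SL alone 3 in EB and 10 in FA. For days 2.5 and 3, 2iL alone gave 1 in EB, 0 in FA and 1 in N2B27, and SL alone 0, 0 and 2. On days 5 and 7, 2iL alone gave 5 for EB against FA, 7 for EB against N2B27 and 0 for FA against N2B27, and SL alone 13 for EB against N2B27 and 5 for FA against N2B27. On days 1 to 2 the 3 comparisons gave 8, 9 and 0 from 2iL and 12, 8 and 0 from SL. In a fit of the compared libraries alone, 7 were called for EB against FA on days 5 and 7, 4 for EB day 7 against day 5, 4 for N2B27 day 7 against day 5, 0 for 2iL against SL on days 5 and 7 and 5 for FA against N2B27 on days 1 to 2. N2B27 day 7 against day 5 gave 1 with the DESeq2 Wald test, 0 with DESeq2 size factors and 0 without the filter, and FA against N2B27 on days 1 to 2 gave 0 with the Wald test and 1 without the filter.

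The starting media pair the libraries of a course and day only as a block in the fit, and are not repeats of 1 culture. Without this replicate block the counts were 0 in EB for days 2.5 and 3, 4 for FA against N2B27 on days 5 and 7, 14 for EB day 7 against day 5, 0 for N2B27 day 7 against day 5, 0 for FA against N2B27 on days 1 to 2 and 3 for day 1 against day 0 from 2iL (there without the term for course). For the differences of changes it was 3 in place of 5 for EB and FA and 1 in place of 5 for FA and N2B27, and no other count moved by over 1.5 times. These differences were also called for 0, 2 and 0 members from 2iL alone (EB and FA, EB and N2B27, FA and N2B27) and for 0 in each from SL alone, and for 1 of EB and FA and 10 of FA and N2B27 in a fit of the compared libraries alone, with 3 for EB and FA by the Wald test.

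Over all genes the counts called also moved, to 296 from 3746 for EB against FA and 38 from 561 for 2iL against SL on days 5 and 7 in a fit of the compared libraries alone, to 354 from 5992 for FA against N2B27 on those days from 2iL alone, to 0 from 7130 for days 2.5 and 3 of FA from SL alone, and to between 31 and 2956 from 2051 for N2B27 day 7 against day 5 and between 1 and 1088 from 525 for FA against N2B27 on days 1 to 2.

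With 1 library left out at a time, counts ranged over 8 to 12 in EB, 18 to 19 in FA and 15 to 18 in N2B27 for days 5 and 7 against days 1 to 2, and over 0 to 4, 5 to 10 and 8 to 12 for days 2.5 and 3. On days 5 and 7 they ranged over 19 to 27 for EB against FA, 16 to 23 for EB against N2B27, 8 to 11 for FA against N2B27 and 0 to 2 for 2iL against SL. They ranged over 4 to 26 for EB day 7 against day 5 (4 without the 2iL library of day 5, 6 without that of day 7) and 0 to 1 for N2B27. At day 0 the range was 14 to 15, and for day 1 against day 0 it was 3 to 9. On days 1 to 2 it was 17 to 22 for EB against FA, 14 to 18 for EB against N2B27, 0 to 1 for FA against N2B27 and 7 to 10 for 2iL against SL. At under 1 CPM a member rests on about 18.2 reads or fewer at the median depth, which limits the Hoxc cluster most.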
